A study of Mus musculus with 4 samples.

Results

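Interferon-induced genes, interferon regulatory factors (IRFs) and STAT transcription factors were followed in RAW264.7 cells, a mouse macrophage line, cultured for 48 h with material titled CuNZ@Gel (2 libraries) or Gel (2 libraries). All 4 libraries are RNA sequencing of attached cells of this 1 line, so both groups share the line and the culture time, and the labels do not spell out CuNZ. The treatment text names CuNZ@Gel alone, so the exposure of the Gel libraries is known from their titles only. No label states whether replicates are separate cultures, and p-values here cover library-to-library spread that may be technical. The members were picked by symbol: 86 of the 40213 symbols in the files matched a fixed pattern for the Ifit, Ifi, Ifitm, Oas, Gbp, Irgm, Iigp, Igtp, Mx, Isg, Irf and Stat names, together with Usp18, Rsad2, Bst2, Ifih1 and Rigi.

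Interferons are secreted antiviral proteins. Type I interferon binds the receptor chains IFNAR1 and IFNAR2, and the kinases JAK1 and TYK2 then phosphorylate STAT proteins, which join IRF9 to bind the interferon-stimulated response element (ISRE) upstream of target genes. Type II interferon acts through STAT pairs that bind the gamma-activated sequence (GAS), and macrophages keep a low basal level of many of these target genes even when no virus is present.

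Values are given as scaled CPM, which are depth-scaled counts (CPM) divided by 1 factor per library and are not per length, so levels are compared between libraries and not between genes, and a sum over a list is weighted towards its most abundant genes. A log2 change is CuNZ@Gel minus Gel of log2(scaled CPM + 1), and the added 1 makes changes of low genes look smaller than they are. Recovered library totals lay between 13718000 and 14881000 reads. The macrophage marker list summed to 8924 and 9164 scaled CPM in CuNZ@Gel and to 5665 and 5833 in Gel, and 9 of its 10 genes reached 1 scaled CPM in at least 2 libraries (Mertk did not). Lyz2 made up most of that sum and of its difference, with 6000 and 5776 scaled CPM in CuNZ@Gel, against 3004 and 3155 in Gel. The list did not move as one: 6 of its 9 tested genes rose, Cd68 and Fcgr1 fell (log2 change -0.23 and -0.82), and Spi1 did not pass. These counts stand beside 32.2% of all tested genes raised and 34.8% lowered. Of 7 markers of plasmacytoid dendritic cells, an interferon-producing cell type, the list summed to 173 and 187 scaled CPM in CuNZ@Gel and to 340 and 360 in Gel. Nearly all of that sum was Tcf4 and the members Irf8 and Bst2, while Siglech stayed at or under 1.09 scaled CPM and Ly6d was at 0. The summed B cell, NK cell, neutrophil, fibroblast, epithelial, endothelial and T cell lists stayed at or under 6.0 scaled CPM in each library, with Ms4a1, Cd3e, Ncr1 and S100a9 at 0. Of these lists only Lck (T cell) and Pecam1 (endothelial) reached 1 scaled CPM in at least 2 libraries. Lck had 3.28 and 2.54 scaled CPM in CuNZ@Gel, against 5.51 and 5.61 in Gel. Pecam1 had 2.21 and 1.40 in CuNZ@Gel, against 0.0725 and 0.0777 in Gel. The part of the macrophage marker difference in the results was not tested, and in bulk RNA fewer cells of a type and less RNA per cell cannot be told apart.

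The promoters of 4 raised and 3 lowered members show the element that interferon acts through. They were chosen after the changes were known, and are the 250 bases before the RefSeq start in build GRCm38.p6, 5′ to 3′ on the gene's strand. Capitals mark the ISRE core, searched as GAAA, any 2 bases and GAAA again, or TTTC, any 2 bases and TTTC where it lies on the other strand, and matches may overlap. Ifit1 (chr19:34640639-34640888, plus strand), Ifit3 (chr19:34583279-34583528, plus strand), Rsad2 (chr12:26456453-26456702, minus strand) and Ifi213 (chr1:173599273-173599522, minus strand) were raised in CuNZ@Gel. Oas1a (chr5:120907526-120907775, minus strand), Oas1g (chr5:120887614-120887863, minus strand) and Bst2 (chr8:71537473-71537722, minus strand) were lowered.
Ifit1: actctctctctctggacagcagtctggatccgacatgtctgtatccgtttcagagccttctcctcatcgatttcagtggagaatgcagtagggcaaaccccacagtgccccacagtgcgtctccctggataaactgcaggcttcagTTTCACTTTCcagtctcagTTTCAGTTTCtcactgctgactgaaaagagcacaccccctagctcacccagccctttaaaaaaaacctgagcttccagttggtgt
Ifit3: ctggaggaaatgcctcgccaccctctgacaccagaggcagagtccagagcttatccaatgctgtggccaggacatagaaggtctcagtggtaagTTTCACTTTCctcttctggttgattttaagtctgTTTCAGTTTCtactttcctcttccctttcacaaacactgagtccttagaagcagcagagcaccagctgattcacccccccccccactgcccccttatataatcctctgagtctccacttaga
Rsad2: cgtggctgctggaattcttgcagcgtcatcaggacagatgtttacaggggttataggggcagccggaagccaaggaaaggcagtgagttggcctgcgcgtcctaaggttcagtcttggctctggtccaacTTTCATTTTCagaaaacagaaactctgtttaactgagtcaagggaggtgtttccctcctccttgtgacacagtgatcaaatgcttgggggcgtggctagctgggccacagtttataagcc
Ifi213: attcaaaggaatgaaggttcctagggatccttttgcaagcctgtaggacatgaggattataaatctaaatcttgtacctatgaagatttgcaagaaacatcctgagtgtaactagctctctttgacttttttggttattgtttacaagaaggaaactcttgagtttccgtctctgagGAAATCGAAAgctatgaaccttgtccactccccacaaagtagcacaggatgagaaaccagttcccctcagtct
Oas1a: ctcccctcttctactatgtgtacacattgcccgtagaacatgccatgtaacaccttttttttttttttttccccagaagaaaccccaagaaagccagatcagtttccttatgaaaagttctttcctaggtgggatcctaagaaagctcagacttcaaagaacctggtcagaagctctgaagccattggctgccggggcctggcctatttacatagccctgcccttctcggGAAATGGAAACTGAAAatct
Oas1g: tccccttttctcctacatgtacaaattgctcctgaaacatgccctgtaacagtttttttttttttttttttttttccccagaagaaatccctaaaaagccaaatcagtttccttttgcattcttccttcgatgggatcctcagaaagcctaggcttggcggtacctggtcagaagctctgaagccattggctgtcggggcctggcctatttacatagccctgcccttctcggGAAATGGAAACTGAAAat
Bst2: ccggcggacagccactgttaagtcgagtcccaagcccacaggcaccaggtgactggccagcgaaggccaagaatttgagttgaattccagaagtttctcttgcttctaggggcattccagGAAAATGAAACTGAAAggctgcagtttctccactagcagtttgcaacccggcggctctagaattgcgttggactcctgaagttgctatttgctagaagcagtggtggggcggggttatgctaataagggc
Every promoter printed here holds a match, so these sequences cannot show how often the element occurs. No match was found for the raised Ifit2, Ifi209, Oasl1 and Ifih1, or for the lowered Ifi35, Ifi44 and Irf7, among others. The match nearest to the start ended 75 bases before it in Ifit1, 112 in Ifit3, 110 in Rsad2 and 63 in Ifi213. In the lowered genes this distance was 4 bases in Oas1a, 2 in Oas1g and 114 in Bst2. Of the 86 members, 65 had a promoter in the RefSeq table, and 32 of these (49.2%) held the ISRE core within the same 250 bases, against 3.46% of the 27025 genes in the table. It was found for 9 of 17 raised, 7 of 19 lowered and 6 of 13 uncalled members with a promoter. The GAS letters TTCNNNGAA, which read the same on both strands, were found for 13 of the 65 members (20.0%) and for 8.13% of all genes in the table. A match describes the letters in this window and is not a binding site.

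The members moved in both directions, and the direction differed between families. In CuNZ@Gel the Ifit genes, Rsad2 and most genes of the Ifi200 family rose, whereas the Oas1a and Oas1g synthetases, most other Ifi genes, Usp18, Bst2 and most IRFs fell. Of the 86 members, 59 passed the filter for testing, a level of 1 scaled CPM or more in 2 or more libraries. Of these 59, 19 rose and 24 fell at a limma adjusted p under 0.05, beside 32.2% of all 11588 tested genes raised and 34.8% lowered. The members' 43 calls (72.9%) are close to the 67.1% called among all tested genes, so the number of calls says little about these genes. The median log2 change of the 59 was -0.14, against -0.03 for all tested genes. At 2-fold or more on the log2 scale, 10 rose and 8 fell, beside 7.06% and 6.11% of all tested genes. The 4 libraries separated by group without overlap for 50 of the 59, beside 83.2% of all tested genes. Gbp7 and Ifi209 passed the filter only through CuNZ@Gel, so that they had to differ. With scaling by total reads alone, the median of all genes moved to 0.15, and 25 members rose and 18 fell. Among all 11601 genes tested that way 5036 rose and 2869 fell.

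**Figure D1:**
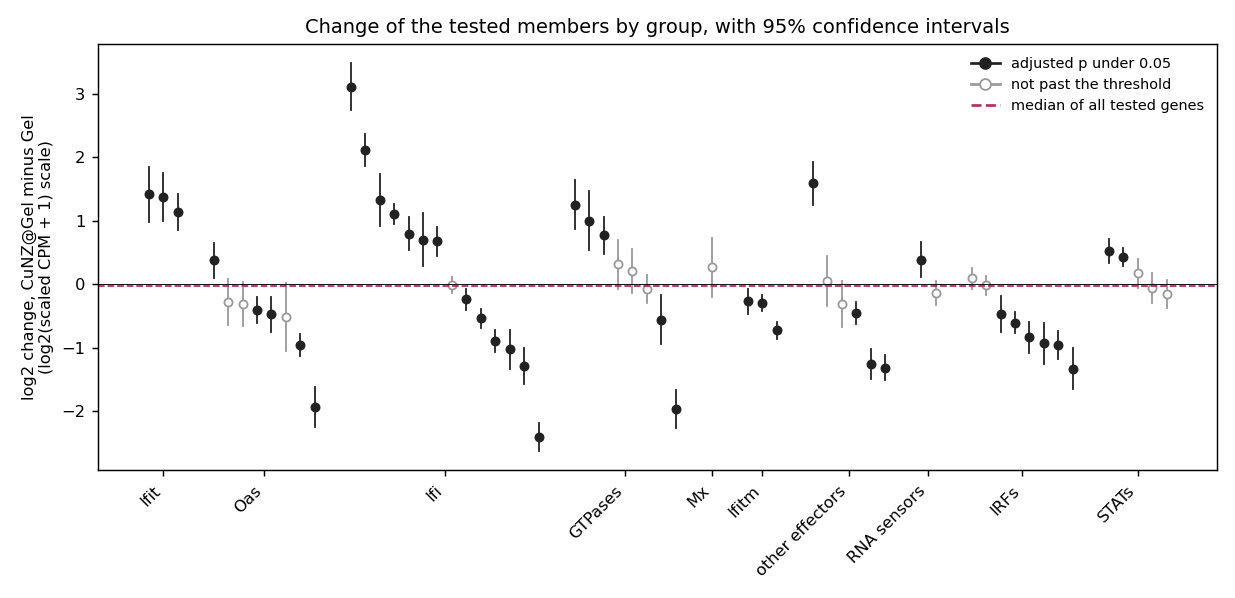
Log2 change (CuNZ@Gel minus Gel, log2(scaled CPM + 1) scale) of tested members by group, each point a gene with its 95% confidence interval from limma (2 libraries per group). Filled points passed an adjusted p of 0.05, and the dashed line is the median of all tested genes (-0.03); the 3 Ifit genes lie above 1, and the 8 Oas genes lie between -1.93 and 0.38.

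The Ifit genes encode tetratricopeptide repeat proteins that bind foreign RNA and block its translation, and all 3 tested members rose. Among all tested genes 32.2% rose. Ifit1, whose protein binds RNA lacking cap methylation, had 5.99 and 5.01 scaled CPM in CuNZ@Gel, against 1.59 and 1.40 in Gel. This is a 3.67-fold difference of the means and a log2 change of 1.38 ± 0.18 (SE), with a limma adjusted p of 9.75e-07. Ifit2, a family member that has also been linked to apoptosis, had 19.7 and 18.2 scaled CPM in CuNZ@Gel, against 7.10 and 9.11 in Gel. Its log2 change was 1.14 ± 0.14 (SE, limma adjusted p = 2.73e-07), and the groups did not overlap. Ifit3, a partner protein of other family members, had 4.58 and 4.49 scaled CPM in CuNZ@Gel, against 1.55 and 0.688 in Gel (log2 change 1.42 ± 0.21, limma adjusted p = 3.85e-06). Within Gel the replicates of Ifit3 differed by more than a factor of 2, on 21 and 9 recovered reads, yet both stayed below both CuNZ@Gel libraries.

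Ifit3 has a close copy, Ifit3b, and reads were split between them: Gel replicate 1 carried 21.33 recovered reads for Ifit3 and 3.68 for Ifit3b, neither a whole number. Their sum does not depend on the split and was 5.74 and 5.46 scaled CPM in CuNZ@Gel, against 1.81 and 0.778 in Gel (log2 change 1.56 ± 0.21, limma adjusted p = 1.08e-06). The other members of the group, Ifit3b, Ifit1bl1 and Ifit1bl2, failed the filter. Ifit1bl1 had 7 and 12 reads in CuNZ@Gel, against 1 and 3 in Gel, and Ifit1bl2 had 3 and 5 reads, against 1 and 0. All 3 had more reads in each CuNZ@Gel library than in either Gel library, without a test. Low genes leaned this way in general: of 7993 symbols below the filter with a read, 22.4% were higher in both CuNZ@Gel libraries and 9.75% were lower.

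The Oas genes encode oligoadenylate synthetases, which sense double-stranded RNA and make the messenger that activates RNase L, and of 8 tested members 4 fell, 1 rose and 3 did not pass (median log2 change -0.44). The 5 calls are a share (62.5%) near the 67.1% of all tested genes, and 4 further members, Oas1d, Oas1e, Oas1f and Oas1h, had at most 1 read in any library. Oas1a fell to 30.7 and 33.4 scaled CPM in CuNZ@Gel, against 62.9 and 62.8 in Gel (log2 change -0.95 ± 0.08, SE, limma adjusted p = 3.23e-09). Oas1g, its close neighbour, had 12.0 and 7.32 scaled CPM in CuNZ@Gel, against 40.8 and 36.4 in Gel, a log2 change of -1.93 ± 0.15 (limma adjusted p = 4.10e-10). Reads may be split between Oas1a and Oas1g, whose sum was 42.7 and 40.7 scaled CPM in CuNZ@Gel, against 104 and 99.2 in Gel (log2 change -1.26, limma adjusted p = 6.27e-12), which does not depend on how reads were shared between the copies.

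Oas2 and Oas3, the larger synthetases with repeated catalytic units, changed less. Oas3 had 35.0 and 31.9 scaled CPM in CuNZ@Gel, against 48.4 and 41.1 in Gel (log2 change -0.41, limma adjusted p = 8.47e-04). Oas2 had 13.4 and 12.4, against 20.7 and 16.1 (log2 change -0.47, limma adjusted p = 0.0032). The Oas2 call was lost without CuNZ@Gel replicate 2 (-0.43, limma adjusted p = 0.0607), without Gel replicate 1 (-0.30, limma adjusted p = 0.101) and with scaling by total reads (-0.30, limma adjusted p = 0.0525). Oasl1, an Oas-like protein that lacks synthetase activity and represses translation of Irf7, was the 1 raised member, at 12.9 and 12.2 scaled CPM in CuNZ@Gel, against 9.93 and 8.95 in Gel (log2 change 0.38, limma adjusted p = 0.0171). That call was lost without CuNZ@Gel replicate 1 or 2 or Gel replicate 2, where the change was 0.34, 0.42 and 0.31 (limma adjusted p = 0.110, 0.0547 and 0.105). Oas1b, Oas1c and Oasl2 did not pass, with log2 changes of -0.51, -0.30 and -0.28. Oas1b had 0.568 and 2.04 scaled CPM in CuNZ@Gel, against 1.67 and 2.63 in Gel, and passed without CuNZ@Gel replicate 2 (-0.99, limma adjusted p = 0.00861) or without Gel replicate 1 (-0.73, limma adjusted p = 0.00956). It also passed with the replicate block (limma adjusted p = 0.0271). With abundant RNAs (mitochondrial, ribosomal protein and ribosomal RNA-like genes) removed, Oas1b, Oas1c and Oasl2 were called lowered (-0.70, -0.46 and -0.44, limma adjusted p = 0.0296, 0.025 and 0.046). Oasl1 was then not called (0.23, limma adjusted p = 0.146), so that 7 of the 8 Oas genes fell and none rose. The median over all genes moved to -0.177 under this setting, where 5246 of 11819 tested genes fell and 2860 rose.

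**Figure D2:**
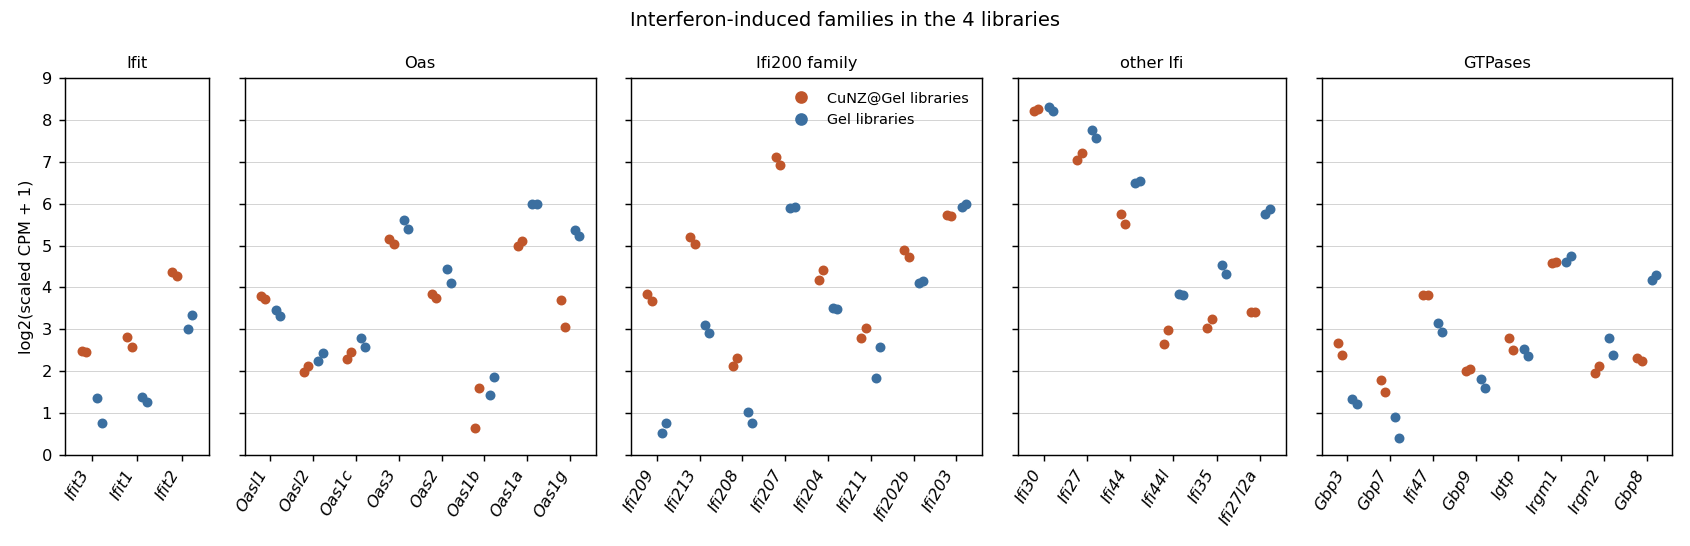
Level of each tested Ifit, Oas, Ifi200 family, other Ifi and GTPase gene in the 4 libraries (y axis, log2(scaled CPM + 1)), 1 point per library, CuNZ@Gel left of Gel for each gene. The CuNZ@Gel points lie above the Gel points for the 3 Ifit genes and for 7 of the 8 Ifi200 genes, and below them for 5 of the 6 other Ifi genes. The libraries separated by group without overlap for 83.2% of all tested genes.

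Within single libraries the Ifit group shifted against the Oas, Ifi and GTPase groups. The mean of the 3 Ifit genes minus the mean of the 8 Oas genes, on the log2(scaled CPM + 1) scale, was -0.08 and -0.25 in CuNZ@Gel, against -2.0 and -2.1 in Gel. The Ifit mean minus the mean of 14 Ifi genes was -1.50 and -1.65 in CuNZ@Gel, against -2.56 and -2.71 in Gel. Against 8 GTPase genes the difference was 0.48 and 0.45 in CuNZ@Gel, and -0.75 and -0.71 in Gel. All 3 differences were higher in both CuNZ@Gel libraries, by 1.87, 1.07 and 1.19, and a factor common to a library largely cancels in them. They carry no test, since the genes were grouped with their changes known and 2 libraries per group were available. Among single genes, the 95% confidence intervals of the log2 change ran from 0.86 to 1.43 for Ifit2 and from 0.10 to 0.66 for Oasl1, the lowest Ifit gene and the highest Oas gene. Both were picked as the ends of their groups, so the gap between their intervals is a description and no test.

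**Figure D3:**
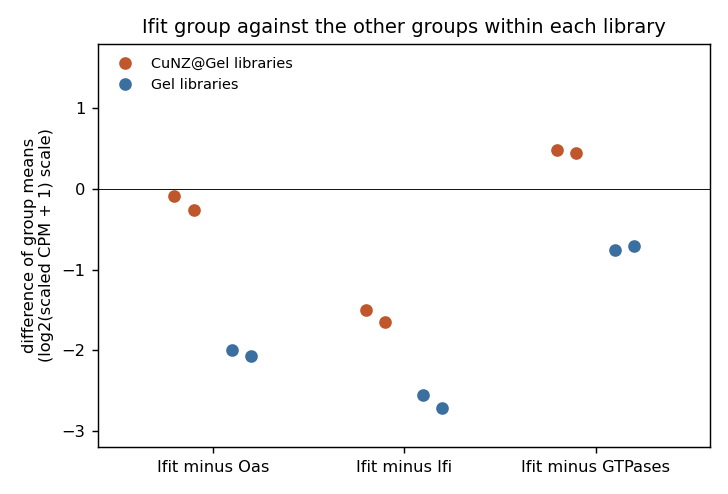
Difference between the mean log2(scaled CPM + 1) of the 3 Ifit genes and that of the Oas, Ifi or GTPase genes (x axis) within each library, 1 point per library, CuNZ@Gel left of Gel. The gap to Oas was -0.08 and -0.25 in CuNZ@Gel, against -2.0 and -2.1 in Gel.

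The Ifi group was split in 2 by family, a division made after the values were seen. The Ifi200 family on chromosome 1 encodes HIN domain proteins that bind DNA in the nucleus and cytosol. Of its 8 tested genes 7 rose and 1 fell (median log2 change 0.95), while of the 6 other tested Ifi genes 5 fell and none rose (median -0.96). Of all tested genes 32.2% rose and 34.8% fell, and since the families were told apart with these values known, the counts describe the split and are no support for it. Ifi209, among the 7, passed the filter only through CuNZ@Gel. Taken as 1 group of 14, the median was 0.34, and it was -0.01 with a filter at 5 scaled CPM or with close paralogs summed.

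Ifi209 showed the largest rise among tested members on the log2(scaled CPM + 1) scale, at 13.3 and 11.8 scaled CPM in CuNZ@Gel, against 0.442 and 0.701 in Gel. In Gel this rested on 6 and 9 reads. The log2 change was 3.11 ± 0.18 (SE), given as a description, since a gene that passes the filter through 1 group alone had to differ. Ifi213 had 35.8 and 31.9 scaled CPM in CuNZ@Gel, against 7.53 and 6.54 in Gel (log2 change 2.12 ± 0.12, limma adjusted p = 3.52e-12). Ifi207 had 137 and 122 scaled CPM in CuNZ@Gel, against 59.1 and 60.1 in Gel (log2 change 1.10 ± 0.07, limma adjusted p = 4.06e-11). For Ifi213 and Ifi207 the gap between groups was far wider than that between replicates.

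Ifi208, Ifi204, Ifi211 and Ifi202b rose by 1.33, 0.80, 0.70 and 0.68 on the log2 scale. Ifi204, which encodes p204, a cytosolic DNA sensor of mouse macrophages, had 17.2 and 20.3 scaled CPM in CuNZ@Gel, against 10.3 in each Gel library. Ifi203 was the exception, at 52.0 and 51.3 scaled CPM in CuNZ@Gel, against 59.8 and 62.4 in Gel (log2 change -0.24, limma adjusted p = 0.0110). Its sequence is close to that of Ifi207, and their summed change was 0.58 (limma adjusted p = 1.53e-07). Ifi208, Ifi209 and Ifi213 summed to 52.4 and 47.8 scaled CPM in CuNZ@Gel, against 8.99 and 7.94 in Gel. Recovered reads of several of these genes were not whole, so single values are uncertain and the sums are firmer. Ifi205, Ifi206 and Ifi214 failed the filter, with 23 reads in the CuNZ@Gel libraries together and 1 in the Gel libraries. Aim2 and Mndal, HIN domain genes outside the symbol pattern, had log2 changes of 0.15 and -0.29 (limma adjusted p = 0.0449 and 0.00372), so the rise did not extend to every gene of this kind.

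Ifi27l2a, a small interferon-induced membrane protein gene, showed the largest fall of all members, to 9.70 and 9.59 scaled CPM in CuNZ@Gel, against 53.0 and 58.1 in Gel. Its log2 change was -2.41 ± 0.10 (SE, limma adjusted p = 3.11e-14). Ifi35, whose product pairs with NMI, had 7.19 and 8.51 scaled CPM in CuNZ@Gel, against 22.1 and 19.1 in Gel (log2 change -1.29, limma adjusted p = 3.23e-08). Ifi44 and Ifi44l, which encode related antiviral proteins, fell by 0.89 and 1.03 on the log2 scale. Ifi44 had 52.9 and 45.1 scaled CPM in CuNZ@Gel, against 90.0 and 92.7 in Gel. Ifi27 had a log2 change of -0.53 (limma adjusted p = 1.85e-06). Ifi30, the lysosomal thiol reductase GILT used in antigen processing, had 299 and 310 scaled CPM in CuNZ@Gel, against 317 and 296 in Gel, and the groups overlapped (95% confidence interval of the log2 change -0.14 to 0.12). After the length and GC correction Ifi30 was called raised (0.30, limma adjusted p = 3.90e-05).

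The GTPase group joins the guanylate-binding proteins (Gbp) and the immunity-related GTPases (Irgm, Iigp, Igtp and Ifi47), which attack the vacuoles of intracellular pathogens and are strongly induced by interferon gamma. Of 8 tested members 3 rose and 2 fell (62.5% called, near the 67.1% of all tested genes), with a median log2 change of 0.26, and without Ifi47 the median of 7 was 0.21. Gbp3 had 5.42 and 4.19 scaled CPM in CuNZ@Gel, against 1.52 and 1.32 in Gel (log2 change 1.25 ± 0.19, limma adjusted p = 5.37e-06). Gbp7, counted among the 3 raised, had 2.46 and 1.84, against 0.870 and 0.311 (log2 change 1.00), and passed the filter only through CuNZ@Gel, so its call is no support. Gbp8 went the other way, at 3.94 and 3.72 scaled CPM in CuNZ@Gel, against 17.1 and 18.7 in Gel, a log2 change of -1.97 ± 0.14 (limma adjusted p = 1.13e-10). On these single values, members of 1 gene family changed in opposite directions. Recovered reads of Gbp8 in CuNZ@Gel were not whole (62.49 and 58.69), nor were some of Gbp4, Gbp6, Gbp9 and Gbp10. Single values of these genes are therefore uncertain, and no sum over close copies was made for the Gbp genes.

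Among the immunity-related GTPases, Ifi47 had 13.1 scaled CPM in each CuNZ@Gel library, against 7.90 and 6.70 in Gel (log2 change 0.77, limma adjusted p = 5.40e-05). Irgm1, a regulator of the other family members, had 22.9 and 23.6 scaled CPM in CuNZ@Gel, against 23.3 and 25.9 in Gel, and did not pass (95% confidence interval of the log2 change -0.29 to 0.14). Irgm2 had 2.85 and 3.35, against 5.97 and 4.19 (log2 change -0.56, limma adjusted p = 0.0109). This call was lost without CuNZ@Gel replicate 1 (-0.47, limma adjusted p = 0.113), without Gel replicate 1 (-0.34, limma adjusted p = 0.185) and with scaling by total reads (-0.41, limma adjusted p = 0.0561). Igtp and Gbp9 did not pass, at 0.21 and 0.32, although Gbp9 passed with scaling by total reads (0.46, limma adjusted p = 0.0338). Irgm2 and Igtp reads were not whole, and their sum changed by -0.15 (limma adjusted p = 0.371).

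Another 9 GTPase members failed the filter and are given as reads. Gbp2b had 13 and 30 reads in CuNZ@Gel, against 2 and 2 in Gel, and Gbp4 had 19 and 10, against 0 and 1. Gbp2 had 12 and 8 reads in CuNZ@Gel, against 3 and 1 in Gel, and Gbp5 had 12 and 9, against 6 and 0. Gbp10 went against these, with 1 and 1 reads in CuNZ@Gel, against 11 and 0 in Gel. The 7 low Gbp genes together had 146 reads in CuNZ@Gel and 37 in Gel. Gbp6 had 18 and 11 reads in CuNZ@Gel, against 3 and 8 in Gel, and Gbp11 had 2 and 0, against 0 in both. Most of these low Gbp genes therefore had more reads in both CuNZ@Gel libraries. Iigp1 had 6 and 1 reads in CuNZ@Gel and 0 and 6 in Gel, and Iigp1c had 1 and 1 in CuNZ@Gel and 2 and 5 in Gel. Over all 27 members below the filter, 14 had a higher scaled CPM in each CuNZ@Gel library than in either Gel library, 1 had a lower one, and 4 (Ifi27l2b, Oas1e, Oas1h and Stat4) were at 0 in every library. Low genes leaned the same way in general: of 7993 symbols below the filter that had a read, 22.4% were higher in both CuNZ@Gel libraries and 9.75% were lower, beside 14 (60.9%) and 1 (4.35%) of the 23 members with a read. Symbols with reads in only 1 library cannot separate in this way. The members and the 7993 symbols were not matched for read depth, so these shares are not directly comparable. For a gene at 0, a library's limit is 3 reads, or between 0.189 and 0.234 scaled CPM, which covers counting error only.

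**Figure D4:**
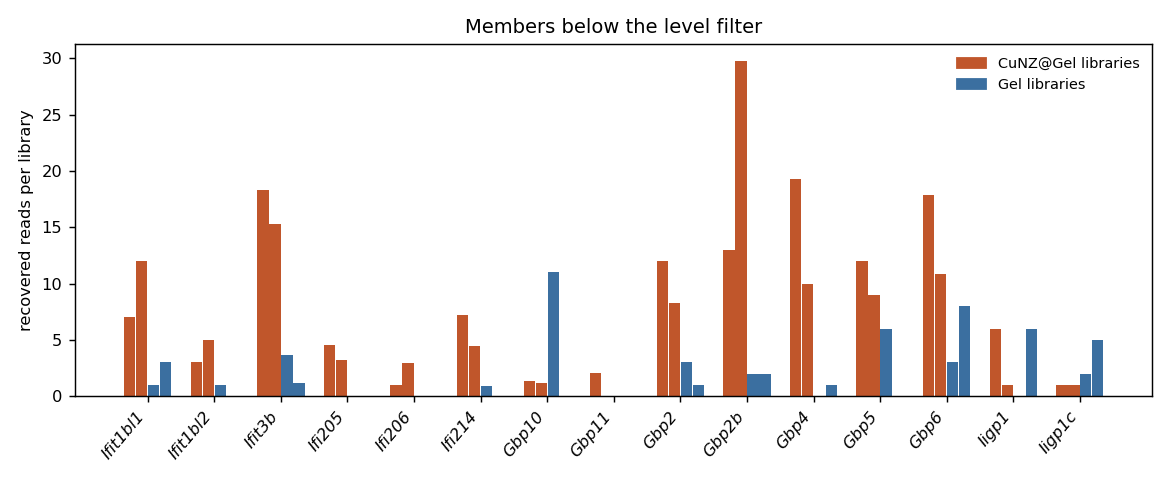
Recovered reads per library (y axis) of the Ifit, Ifi and GTPase members below the filter that had at least 1 read, 4 bars per gene, CuNZ@Gel left of Gel. Gbp2b reached 30 reads in 1 CuNZ@Gel library, against 2 in each Gel library, and Gbp10 reached 11 in 1 Gel library.

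Ifitm genes encode membrane proteins that hinder virus entry, and the 3 tested members were lower in CuNZ@Gel. Among all tested genes 34.8% fell. Ifitm2 had 105 and 111 scaled CPM in CuNZ@Gel, against 182 and 177 in Gel (log2 change -0.73 ± 0.07, limma adjusted p = 3.90e-09). Ifitm3, the best studied restriction factor of the family, had 239 and 249, against 304 and 292 (log2 change -0.29, limma adjusted p = 2.60e-04). Ifitm6 had 29.1 and 30.4 scaled CPM, against 34.1 and 38.0 (log2 change -0.27, limma adjusted p = 0.0180). These transcripts are short, with a median of 678 bases in GENCODE vM21. After a correction for transcript length and GC content, Ifitm3 stood at 0.05 and Ifitm6 at -0.03, and neither passed (limma adjusted p = 0.314 and 0.788). With scaling by total reads neither passed (-0.10 and -0.08, limma adjusted p = 0.148 and 0.449), and Ifitm6 was also lost without CuNZ@Gel replicate 1 (-0.24, limma adjusted p = 0.104) or Gel replicate 2 (-0.19, limma adjusted p = 0.197). Ifitm1, Ifitm5, Ifitm7 and Ifitm10 had at most 6 reads in a library. Of the Mx genes, which encode dynamin-like antiviral GTPases, Mx2 had 2.33 and 1.90 scaled CPM in CuNZ@Gel, against 2.31 and 1.01 in Gel, and did not pass (log2 change 0.27). It passed without Gel replicate 1 (0.63, limma adjusted p = 0.0264) and was -0.09 without Gel replicate 2. Mx1 failed the filter, with 16 and 11 reads in CuNZ@Gel and 4 and 10 in Gel.

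Rsad2, which encodes the antiviral enzyme viperin, moved with the Ifit genes. It had 9.01 and 8.69 scaled CPM in CuNZ@Gel, against 2.46 and 2.10 in Gel, a 3.88-fold difference of the means (log2 change 1.59 ± 0.16, limma adjusted p = 3.08e-08). Usp18, which removes ISG15 from proteins and blocks signalling at IFNAR2, had 19.4 scaled CPM in each CuNZ@Gel library, against 51.2 and 48.1 in Gel (log2 change -1.31 ± 0.09, limma adjusted p = 1.05e-10). Bst2, the virus-retaining membrane protein tetherin, had 21.5 and 28.7, against 65.9 and 56.2 (log2 change -1.26 ± 0.11, limma adjusted p = 3.19e-09). Isg15, the ubiquitin-like modifier, had 2.77 and 3.24 scaled CPM in CuNZ@Gel, against 3.99 and 3.89 in Gel, and did not pass (95% confidence interval of the log2 change -0.67 to 0.06), but it was called lowered with abundant RNAs removed (-0.46, limma adjusted p = 0.0346). Isg20, an exonuclease, overlapped between groups (log2 change 0.05). Isg20l2, a nucleolar exonuclease caught by the Isg symbol, had a log2 change of -0.46 (limma adjusted p = 6.95e-05).

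Of the RNA sensors 1 rose and 1 did not pass, beside 32.2% of all tested genes raised. Ifih1, the sensor MDA5 of long double-stranded RNA, had 16.9 and 16.4 scaled CPM in CuNZ@Gel, against 10.9 and 14.2 in Gel (log2 change 0.39, limma adjusted p = 0.0135). It did not pass without CuNZ@Gel replicate 1 or 2 or without Gel replicate 1, where the change was 0.37, 0.41 and 0.21 (limma adjusted p = 0.112, 0.0795 and 0.238). After the length and GC correction its change was 0.11 (limma adjusted p = 0.459). Rigi, the sensor of RNA with a triphosphate end, had 34.0 and 31.9 scaled CPM in CuNZ@Gel, against 35.7 and 37.0 in Gel, and did not pass (95% confidence interval of the log2 change -0.33 to 0.06). With abundant RNAs removed, Rigi was called lowered (-0.30, limma adjusted p = 0.00672) and Ifih1 was not called (0.24, limma adjusted p = 0.124).

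IRFs bind ISRE-like sequences, and of 8 tested members 6 fell and none rose (median log2 change -0.72), beside 34.8% of all tested genes lowered and 32.2% raised. With scaling by total reads 2 IRFs rose and 5 fell, beside 5036 raised and 2869 lowered of all 11601 genes tested that way. After the length and GC correction 1 rose, Irf5 (0.18, limma adjusted p = 0.0108), beside 3319 raised and 3975 lowered of 11100 genes. Irf7, the main amplifier of interferon alpha genes, had 5.04 and 7.49 scaled CPM in CuNZ@Gel, against 16.1 and 17.9 in Gel (log2 change -1.33 ± 0.16, limma adjusted p = 1.87e-07). Irf9, the DNA-binding partner of STAT2, had 15.8 and 17.2, against 32.8 and 33.1 (log2 change -0.95 ± 0.10, limma adjusted p = 7.11e-08). Irf3, which is activated by the kinase TBK1 after nucleic acid sensing, had 12.1 and 12.7, against 23.7 and 22.2 (log2 change -0.84, limma adjusted p = 2.05e-06). All 3 were lower in each CuNZ@Gel library than in either Gel library.

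Irf8, a lineage factor of macrophages and dendritic cells, had 41.5 and 42.6 scaled CPM in CuNZ@Gel, against 67.2 and 61.7 in Gel (log2 change -0.60, limma adjusted p = 1.54e-06). Irf4, which acts in alternative activation, had 4.29 and 4.88, against 10.3 and 8.95 (log2 change -0.93, limma adjusted p = 2.06e-05). Irf1, an early target of interferon gamma, had 8.26 and 9.27, against 12.7 and 12.2 (log2 change -0.46, limma adjusted p = 0.0048). The Irf1 call was lost without CuNZ@Gel replicate 1 (-0.39, limma adjusted p = 0.0606) and with scaling by total reads (-0.29, limma adjusted p = 0.0619). Irf5, tied to inflammatory cytokine genes, and Irf2, a competitor of IRF1, overlapped between groups, with log2 changes of -0.02 and 0.09.

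STATs carry cytokine signals to the nucleus, and Stat3 and Stat6 rose, while Stat2, Stat5a and Stat5b did not pass and Stat4 was at 0 in every library. Stat3, the factor of interleukin 6 and 10 signalling, had 43.3 and 40.2 scaled CPM in CuNZ@Gel, against 29.3 and 28.0 in Gel (log2 change 0.53 ± 0.09, limma adjusted p = 3.77e-05). Stat6, the factor of interleukin 4 signalling, had 139 and 138, against 99.3 and 105 (log2 change 0.44 ± 0.07, limma adjusted p = 8.02e-06). Stat2 had 21.0 and 23.0 scaled CPM in CuNZ@Gel, against 18.9 and 19.9 in Gel, and did not pass (0.18), but passed with scaling by total reads (0.36, limma adjusted p = 0.00726). Stat5a and Stat5b, highly similar neighbours, had log2 changes of -0.06 and -0.16 and did not pass. Stat5b was called lowered with abundant RNAs removed (-0.32, limma adjusted p = 0.0125) and after the length and GC correction (-0.30, limma adjusted p = 0.0124).

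**Figure D5:**
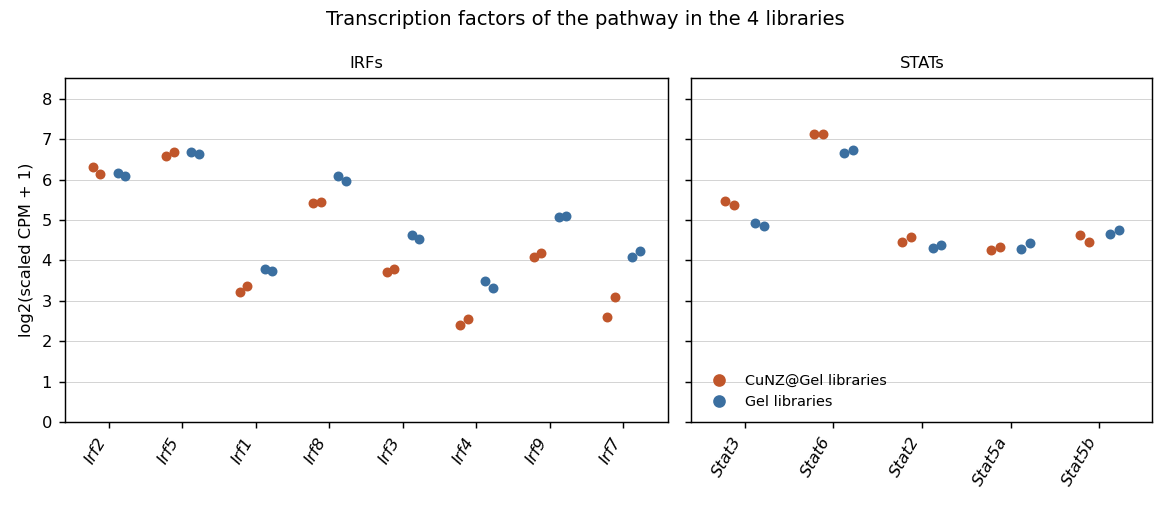
Level of 8 tested IRFs and 5 tested STATs in the 4 libraries (y axis, log2(scaled CPM + 1)), 1 point per library, CuNZ@Gel left of Gel for each gene. Irf7 and Irf9 lie lower in both CuNZ@Gel libraries, with log2 changes of -1.33 and -0.95, while Stat3 and Stat6 lie higher, with 0.53 and 0.44.

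Interferon genes themselves were close to absent. Of 12 ligand genes, among them Ifnb1, Ifng and several Ifna genes, 10 were at 0 in all 4 libraries, and 2 reads were found in total, 1 for Ifnb1 in CuNZ@Gel and 1 for Ifnk in Gel. A change in the ligands was therefore not detectable at this depth. Of 8 tested receptor and kinase genes 1 rose and 3 fell, so that 4 were called, a share below the 67.1% of all tested genes. Ifnar2, the high-affinity chain of the type I receptor, had 71.3 and 65.9 scaled CPM in CuNZ@Gel, against 151 and 152 in Gel (log2 change -1.14 ± 0.07, limma adjusted p = 8.21e-12). Ifnar1 had 40.5 and 38.2, against 40.0 and 47.3, and did not pass (-0.14). Il10rb, shared by receptors of interferon lambda and interleukin 10, and Ifngr1, the binding chain for interferon gamma, had log2 changes of -0.72 and -0.37 (limma adjusted p = 1.32e-08 and 9.74e-04). Ifngr1 did not pass with scaling by total reads (-0.19, limma adjusted p = 0.0684). Jak1, the kinase common to these receptors, had 183 and 179 scaled CPM in CuNZ@Gel, against 102 and 105 in Gel (log2 change 0.80, limma adjusted p = 6.70e-10).

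Of 19 genes of nucleic acid sensing and its adaptors, 10 rose and 5 fell (78.9% called, beside 67.1% of all tested genes). Zbp1, among the 10, passed the filter only through CuNZ@Gel, so that it had to differ. Trim25, a ubiquitin ligase in the RIG-I pathway, and Tbk1 rose by 0.71 and 0.67 on the log2 scale, while Ticam2, the TLR4 adaptor TRAM, and Ddx41, an RNA helicase, had changes of -1.49 and -0.98. Of 16 tested negative regulators 4 rose and 6 fell (62.5% called), a share near that of all tested genes. Socs3, the feedback inhibitor of STAT3 signalling, had 6.68 and 6.92 scaled CPM in CuNZ@Gel, against 18.3 and 15.1 in Gel (log2 change -1.18, limma adjusted p = 2.00e-07). Ptpn2, a phosphatase of JAK1, and Trex1, a DNA exonuclease, had log2 changes of -0.47 and -0.67, and Samhd1, a nucleotide hydrolase, one of 0.40.

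A list of 59 further interferon-induced genes outside the symbol pattern was split evenly as well. Of its 50 tested genes 18 rose and 18 fell (72.0% called, beside 67.1% of all tested genes), with a median log2 change of 0.07. Trim34a, among the 18 raised, passed the filter only through CuNZ@Gel, so that it had to differ. Rtp4, a regulator of interferon responses, had 4.73 and 4.70 scaled CPM in CuNZ@Gel, against 24.8 and 22.7 in Gel (log2 change -2.11, limma adjusted p = 1.18e-11). Ccl2, a monocyte chemokine also driven by other signals, had 12.0 and 13.2, against 1.23 and 2.80 (log2 change 2.22, limma adjusted p = 3.41e-09). Znfx1, an RNA helicase, had a log2 change of 0.87, and Fcgr1, the high-affinity IgG receptor, one of -0.82. Among genes named after their values were seen, Cxcl10 and Cmpk2, the neighbour of Rsad2, did not pass, at 0.29 and 0.30.

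Transcript length and GC content moved with the changes. Over the 11100 tested genes with a known length, a description across genes that share these libraries, Pearson's r of the change was 0.286 with log2 length and -0.172 with GC content. The Ifit, Oas, Ifi and GTPase medians after a correction for both were 1.38, -0.40, 0.54 and 0.21. With abundant RNAs removed, 18 members rose and 32 fell. Under that setting the median over all 11819 tested genes was -0.177, with 2860 raised and 5246 lowered. The lowered calls of Isg15, Rigi and Stat5b with abundant RNAs removed fall under the same shift.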

How the data were processed

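RNA sequencing libraries of RAW264.7 cells (2 per group) were grouped by their titles. The submitters' processing notes name build GRCm39 and the tools GATK, Salmon, STAR and fastp. Not given in the sources used here were their versions and roles, the annotation, strand use and the normalization. The deposited files hold 1 log2 value per symbol, to 3 decimals. From the values, each is log2(x + 1), x being CPM divided by 1 factor per library. Of the values of at most 1, 92.6% to 93.5% were whole multiples of 1 step within 0.02 reads, and the step gave the reads.

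Because the files hold log2 values, limma 3.58.1 (R 4.3.3) tested genes that reached 1 scaled CPM in 2 or more libraries, with a trend, group alone as the term, and Benjamini-Hochberg adjustment over all tested genes at 0.05. The procedure was also run on simulated data in which few genes changed. Most tested genes were called here, so that run does not cover the setting of these libraries. Members, lists and groups were chosen with earlier results of these data known. Named are all tested Ifit and Oas genes, up to 6 members of other groups and up to 4 called genes per pathway list, by p; further genes were named after their values were seen, and some items are not reported here. Paralog sums were likewise chosen afterwards. Same-numbered replicates were checked for pairing; with 2 pairs none could be shown. Promoters came from RefSeq (GRCm38.p6), and lengths from GENCODE vM21 (95.8% of tested genes), both on a build other than GRCm39. Alternatives were other scalings, filters, a pseudocount of 0.1, limma-voom, a minimum fold of 1.5, removal of abundant RNAs, each library left out, the replicate block, and the length and GC correction.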

Additional observations from a re-analysis of the deposited data

How the results depend on the processing

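The counts of members kept within 1.5 times of 19 raised and 24 lowered under all alternatives run except the test against a minimum fold of 1.5, which left 9 raised and 11 lowered members and 1015 raised and 940 lowered genes in all. With 1 library left out, 15 to 17 members rose and 21 to 24 fell, and among all tested genes 3096 to 3411 rose and 3419 to 3653 fell. The Ifit median was 1.51 with scaling by total reads, 1.84 with limma-voom, 0.975 with no filter and 1.81 with a pseudocount of 0.1. The Ifi median was 0.518 with scaling by total reads, 0.176 with abundant RNAs removed, 0.539 after the length and GC correction and 0.187 to 0.323 with 1 library left out. It turned to -0.011 with the filter at 5 scaled CPM and with paralogs summed, where fewer genes entered it. The GTPase median turned to -0.0765 with the filter at 5 scaled CPM, which left 3 genes. After the length and GC correction Ifitm3 turned to 0.0546; the cause was not tested. Of 62 named genes 51 were called, and 27 of these kept call and direction under every alternative run that gave them a value. Deviations of same-numbered replicates correlated at -0.116. The replicate block gave 18 raised and 25 lowered members, and 3589 raised and 3900 lowered genes in all; the crossed pairing gave 4030 and 4340. Among the named genes, the block changed the call of Oas1b and no other. Leaving aside the minimum fold, calls were lost most often with scaling by total reads, for 6 genes. Depth limits the 27 members below the filter, none of which exceeded 30 reads in a library.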
